A study of Mus musculus with 18 samples.

Results

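The miR-26 family was followed through 18 small RNA libraries of mouse knee cartilage. It was taken by name and holds 5 mature microRNAs (miRNAs) among the 1412 of the count table, namely mmu-miR-26a-5p, mmu-miR-26b-5p, mmu-miR-26a-1-3p, mmu-miR-26a-2-3p and mmu-miR-26b-3p (written without the mouse prefix below). Cartilage came from the femoral condyles of male C57bl6 mice, 12 weeks old at injury, in which a single load of 12 N ruptured the anterior cruciate ligament (ACL) of the right knee. There were 5 groups: the injured right knee at day 1 (day 1 ACL, n = 3) and day 7 (day 7 ACL, n = 3), the uninjured left knee of injured mice at day 1 (day 1 contralateral, n = 3) and day 7 (day 7 contralateral, n = 3), and knees of mice that received no load (naïve, n = 6). The labels place the naïve libraries at day 7, so comparisons of day 1 libraries with them also differ in day. Every library was a pool. The design text gives 4 mice per sample, but the study's supplement ties pools of 4 to cartilage partly lost at day 7. The methods name 6 mice for the 3 day 1 pools, too few for 4 mice in each. They also name 6 naïve mice for the 6 naïve libraries. Injured and contralateral libraries can come from opposite knees of the same mice, and naïve libraries of the left and right side can share mice too, so p-values measure the spread between these libraries.

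A miRNA hairpin gives a 5p and a 3p arm, of which one, the guide, is usually loaded into Argonaute and kept, while the partner is mostly degraded. The guide finds messenger RNAs mainly by pairing through its seed, bases 2 to 8. The miR-26 guides are the 5p arms. They are found in most tissues, the histone methyltransferase Ezh2 is among their known targets, and their hairpins lie inside the genes of small C-terminal domain phosphatases (Ctdsp1, Ctdsp2 and Ctdspl).

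The mature sequences show which reads can be told apart. All 5 arms matched RefSeq entries on GRCm38.p6, and they are written 5′ to 3′ with the seed in capitals.
miR-26a-5p: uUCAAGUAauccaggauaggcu
miR-26b-5p: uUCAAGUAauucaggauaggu
miR-26a-1-3p: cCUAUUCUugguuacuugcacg
miR-26a-2-3p: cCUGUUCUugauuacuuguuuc
miR-26b-3p: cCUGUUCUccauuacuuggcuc

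Both 5p arms carry the seed UCAAGUA, and they were the 2 mature mouse miRNAs with it among 1679 in the reference. With positions counted from 1 at the 5′ end, miR-26b-5p differs from miR-26a-5p by C11U and C21U and is 1 base shorter (21 against 22 bases), so no difference falls in the seed. Of the partner arms, miR-26a-2-3p and miR-26b-3p share the seed CUGUUCU with 2 further miRNAs of the table, miR-6932-3p and miR-7039-3p. miR-26a-1-3p has the seed CUAUUCU, which no other mature miRNA in the reference carries, and differs from miR-26a-2-3p by A4G inside the seed and by G11A, C19U, A20U, C21U and G22C outside it.

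The hairpins are shown because miR-26a-5p is made from both miR-26a hairpins, while each 3p arm comes from 1. Both arms are in capitals, on the plus strand of GRCm38.p6.
Mir26a-1, chr9:119031796-119031885: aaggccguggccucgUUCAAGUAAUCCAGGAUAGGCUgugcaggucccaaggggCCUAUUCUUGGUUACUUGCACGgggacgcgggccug
Mir26a-2, chr10:126995530-126995613: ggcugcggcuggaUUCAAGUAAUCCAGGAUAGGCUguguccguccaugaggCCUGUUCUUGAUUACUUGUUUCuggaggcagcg
Mir26b, chr1:74394310-74394394: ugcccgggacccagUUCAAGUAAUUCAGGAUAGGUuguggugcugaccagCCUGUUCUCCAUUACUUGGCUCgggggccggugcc

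In the GENCODE M21 annotation each hairpin lies on the strand of its host. Mir26a-1 falls in intron 5 of an 8-exon transcript of Ctdspl, and Mir26b in intron 4 of a 7-exon transcript of Ctdsp1. Mir26a-2 falls in intron 5 of an 8-exon transcript of Ctdsp2, and also overlaps exon 1 of 2 shorter Ctdsp2 transcripts, one of them annotated as a retained intron. Host gene RNA was not measured in these libraries.

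Library totals ranged from 758388 to 4088852 counts, and between 604 and 859 miRNAs had at least 1 count. The cartilage miRNAs miR-140-5p, miR-140-3p, miR-455-5p and miR-455-3p were present in every library, with a summed share between 0.507% and 1.1% of counts. Skeletal muscle miRNAs took far more, between 6.91% and 25.8%, nearly all of it miR-1a-3p. Markers of both tissues were thus present in all pools, and fewer cells of a type cannot be told apart from less RNA per cell. Day 7 contralateral replicate 1 stood farthest from the rest, with a mean distance of 24.9 to the other libraries in log2 CPM (read counts scaled to a common library size), against 20.6 for the next. It also had the highest muscle share. It was kept, and results that rest on it are given with and without it.

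miR-26a-5p was one of the most abundant miRNAs of the cartilage pools. It (mmu-miR-26a-5p in the table) took 7.36% ± 1.81 of all counts (SD, n = 18), behind miR-1a-3p at 13.7% and miR-148a-3p at 11.8%. It ranked first in 2 libraries, was within the top 5 in 17, and was at rank 9 in the remaining library, day 7 contralateral replicate 1. miR-26b-5p took 0.198% ± 0.0488 of counts and had a median rank of 50.5 of 1412.

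Nearly all family reads were therefore of 1 sequence. miR-26a-5p made up a mean of 97.3% of the reads of the 5 arms, between 96.4% and 98.0% by library, and miR-26b-5p a mean of 2.65%. The partner arms were rare throughout: over all libraries there were 2636809 reads of miR-26a-5p and 74920 of miR-26b-5p, but 1266 of miR-26a-2-3p, 280 of miR-26b-3p and 80 of miR-26a-1-3p. The last had at most 10 reads in a library and 0 in naïve replicate 5. It was removed by the filter on low counts, so 4 of the 5 arms entered the tests.

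**Figure D1:**
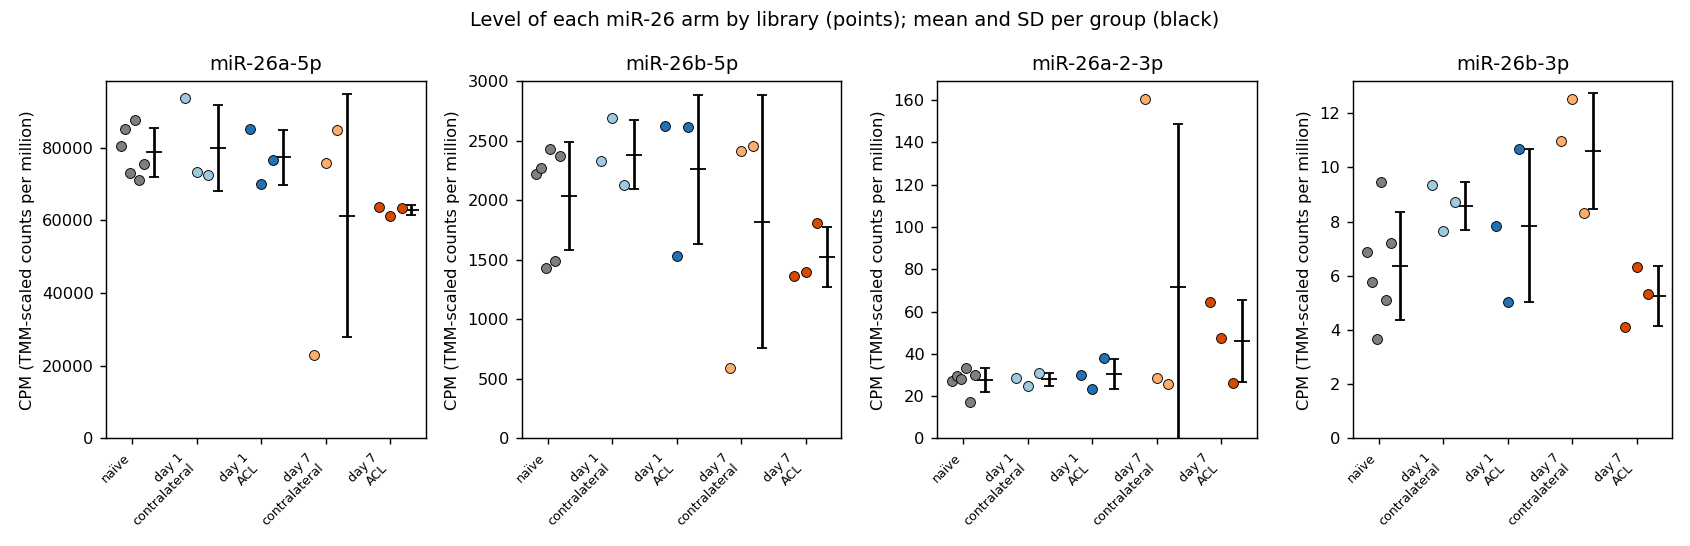
Level of 4 miR-26 arms in each library, in CPM on a linear axis from 0; points are libraries and black bars the mean and SD of each group, the lower end of 1 bar being cut at 0. The 3 day 7 ACL libraries lie between 61133 and 63785 CPM for miR-26a-5p, below all 6 naïve libraries, and day 7 contralateral replicate 1 lies far from its group for 3 arms.

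All CPM values were scaled between libraries by the trimmed mean of M-values (TMM). Naïve libraries held between 71014 and 87615 CPM of miR-26a-5p, with a median of 77869. Day 1 contralateral libraries were at 93501, 73398 and 72536 CPM, and day 1 ACL libraries at 85147, 70047 and 76620 CPM. These 3 groups overlapped. Day 7 contralateral libraries were at 22977, 75869 and 84923 CPM, of which the first, replicate 1, was the lowest of all 18 libraries. Day 7 ACL libraries lay close together at 63785, 61133 and 63471 CPM, below every naïve and every day 1 library but not below that contralateral library.

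The lower level of miR-26a-5p at day 7 did not pass the test. Mean CPM was 62796 ± 1449 (SD, n = 3) in day 7 ACL and 78738 ± 6746 (SD, n = 6) in naïve cartilage. The log2 fold change was -0.32 ± 0.27 (SE), with a 95% confidence interval from -0.89 to 0.24 and an adjusted p of 0.494 (limma-voom, Benjamini-Hochberg over 428 miRNAs). The groups did not overlap, but neither did those of 24.1% of all miRNAs tested in this comparison. The scaling bears on this separation: as raw shares of counts, day 7 ACL libraries (5.99% to 6.12%) stayed apart from naïve libraries (6.53% to 9.62%) but not from day 1 ACL libraries (5.45% to 8.83%). In CPM, 34.3% of all miRNAs had no overlap between day 7 ACL and day 1 ACL. Such percentages over all miRNAs were counted in CPM only, not in raw shares.

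The standard error of this difference changed when day 7 contralateral replicate 1 was left out. That library was not part of the comparison, yet the 5 groups shared 1 estimate of the spread. Without it, the log2 fold change for miR-26a-5p was -0.29 ± 0.12 (SE), 95% confidence interval -0.54 to -0.03, with an adjusted p of 0.104 (limma). With library quality weights, which gave that library a weight of 0.148, it was -0.38 with an adjusted p of 0.0296 (limma). Weights also differed inside the compared groups. They ran from 0.454 (replicate 3) to 1.96 (replicate 4) in naïve and from 1.22 (replicate 3) to 2.87 (replicate 2) in day 7 ACL libraries. Which weights moved the value was not tested. In this comparison the weights raised the calls over all miRNAs from 78 to 135 of 428. Across all 20 alternatives the adjusted p ran from 0.0296 to 0.730 and the sign was negative in 20.

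Against the contralateral knee at day 7, the sign of the miR-26a-5p difference was set by 1 library. The log2 fold change was 0.21 ± 0.31 (SE, adjusted p = 0.752, limma) with all libraries and -0.29 ± 0.15 (SE, adjusted p = 0.281, limma) without day 7 contralateral replicate 1. Likewise, day 7 contralateral against naïve cartilage gave -0.54 (adjusted p = 0.675, limma) with it and 0.00067 (adjusted p = 1.00, limma) without it. In the library itself miR-26a-5p took 2.37% of 1410173 counts (exact binomial 95% interval 2.35% to 2.40%, counting error only), so depth did not limit this value.

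miR-26b-5p, the minor guide with the same seed, varied more within groups. Naïve libraries lay between 1431 and 2429 CPM, with a median of 2246. Day 1 contralateral libraries were at 2330, 2693 and 2125 CPM, and day 1 ACL libraries at 2626, 1534 and 2617 CPM. Day 7 contralateral libraries were at 592, 2415 and 2453 CPM. Replicate 1 was again the lowest of all libraries. Day 7 ACL libraries were at 1363, 1398 and 1810 CPM, and they overlapped with the low end of the naïve group. As raw shares of counts, day 7 ACL libraries (0.131% to 0.171%) stayed apart from naïve (0.181% to 0.242%) and day 1 ACL libraries (0.186% to 0.236%). They did not stay apart from day 7 contralateral libraries (0.0611% to 0.235%). The overlap with naïve libraries thus depends on the scaling. How many of all miRNAs stayed apart in raw shares was not counted.

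In day 7 ACL versus naïve cartilage the log2 fold change of miR-26b-5p was -0.39 ± 0.35 (SE), 95% confidence interval -1.12 to 0.34, with an adjusted p of 0.510 (limma). Quality weights gave -0.56 (adjusted p = 0.0204, limma), while raising the calls over all miRNAs in this comparison from 78 to 135 of 428. Over its 20 alternatives the adjusted p ran from 0.0204 to 0.762. Without day 7 contralateral replicate 1 the log2 fold change was -0.35 ± 0.22 (SE, adjusted p = 0.299, limma). Against day 1 ACL it was -0.54 ± 0.40 (SE, adjusted p = 0.433, limma), and -0.75 (adjusted p = 0.0122, limma) with quality weights, within a range of 0.0122 to 0.787 over 17 alternatives. There the weights raised the calls over all miRNAs from 67 to 109. Against the contralateral knee the value was -0.04 ± 0.40 (SE, adjusted p = 0.959, limma), or -0.61 ± 0.28 (SE, adjusted p = 0.189, limma) without that library.

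Muscle content differed between the pools, and its relation to miR-26b-5p was uneven. The summed share of 7 skeletal muscle miRNAs was 12.9%, 6.91% and 9.98% in the day 7 ACL libraries, against 9.15% to 18.3% in naïve cartilage. The naïve libraries lowest in miR-26b-5p, replicates 3 and 5 at 1431 and 1492 CPM, had muscle shares of 11.8% and 9.15%. Day 1 ACL replicate 2, at 1534 CPM, had 6.95%. Some other libraries did not follow this: day 7 ACL replicate 1 (1363 CPM) and day 7 contralateral replicate 2 (2415 CPM) had nearly equal muscle shares of 12.9% and 12.8%, and day 1 contralateral replicate 2, with the highest miR-26b-5p (2693 CPM), had 13.9%. Day 7 contralateral replicate 1 went the opposite way, with the lowest miR-26b-5p and the highest muscle share, 25.8%. Over the 17 libraries without it, log2 CPM of miR-26b-5p and of miR-1a-3p, nearly all of the muscle share, had a Pearson r of 0.803. That r came from a ranking of 173 miRNAs, in place 3 behind miR-30a-5p (0.823) and miR-30e-3p (0.816). Muscle markers themselves had 0 of 6 tested members called in day 7 ACL versus naïve cartilage, where 18.2% of all miRNAs were called and 3.74% were called lower, with a median log2 fold change of -0.69. Their part in the miR-26b-5p values was not tested.

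Among the partner arms, miR-26a-2-3p went the opposite way to its guide in some libraries. Naïve libraries lay between 17.1 and 33.4 CPM, with a median of 28.8. The 3 day 1 contralateral libraries were at 28.6, 24.7 and 30.8 CPM, and the day 1 ACL libraries at 29.8, 23.5 and 37.9 CPM. Day 7 contralateral replicate 1 reached 160.7 CPM, while replicates 2 and 3 were at 28.7 and 25.8. The library with the least miR-26a-5p thus had the most miR-26a-2-3p, with 234 reads. Day 7 ACL libraries were at 64.6, 47.5 and 26.2 CPM, from 47, 105 and 79 reads, and the first 2 exceeded every naïve and day 1 library.

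The day 7 ACL difference from naïve cartilage was 0.59 ± 0.44 (SE) on the log2 scale for miR-26a-2-3p, 95% confidence interval -0.34 to 1.51, with an adjusted p of 0.430 (limma). Without day 7 contralateral replicate 1 it was 0.61 ± 0.25 (SE, adjusted p = 0.0978, limma). Against the day 7 contralateral knee it was -0.19 ± 0.49 (SE, adjusted p = 0.870, limma), and 0.65 ± 0.31 (SE, adjusted p = 0.222, limma) without that library, so the direction again turned on 1 contralateral pool.

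miR-26b-3p had the smallest unadjusted p-values of the family. Its naïve libraries lay between 3.69 and 9.47 CPM, with a median of 6.33. Day 7 contralateral libraries were at 10.99, 12.5 and 8.32 CPM, and day 7 ACL libraries at 4.12, 6.34 and 5.31 CPM, without overlap. Day 1 contralateral libraries were at 9.37, 7.64 and 8.71 CPM and day 1 ACL libraries at 7.83, 5.03 and 10.7 CPM.

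These values rest on few reads, between 3 and 48 per library. Day 7 ACL versus day 7 contralateral gave a log2 fold change of -0.91 ± 0.36 (SE), 95% confidence interval -1.66 to -0.16, with an unadjusted p of 0.0195 and an adjusted p of 0.107 in limma. Groups without overlap were found for 26.6% of all miRNAs in this comparison. Day 7 contralateral versus naïve gave 0.74 ± 0.30 (SE), with an unadjusted p of 0.0216 and an adjusted p of 0.675 in limma. Unlike the other 3 tested arms, miR-26b-3p was not extreme in day 7 contralateral replicate 1. Without that library the 2 differences were -0.81 ± 0.38 (SE, adjusted p = 0.201, limma) and 0.69 ± 0.32 (SE, adjusted p = 0.927, limma).

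**Figure D2:**
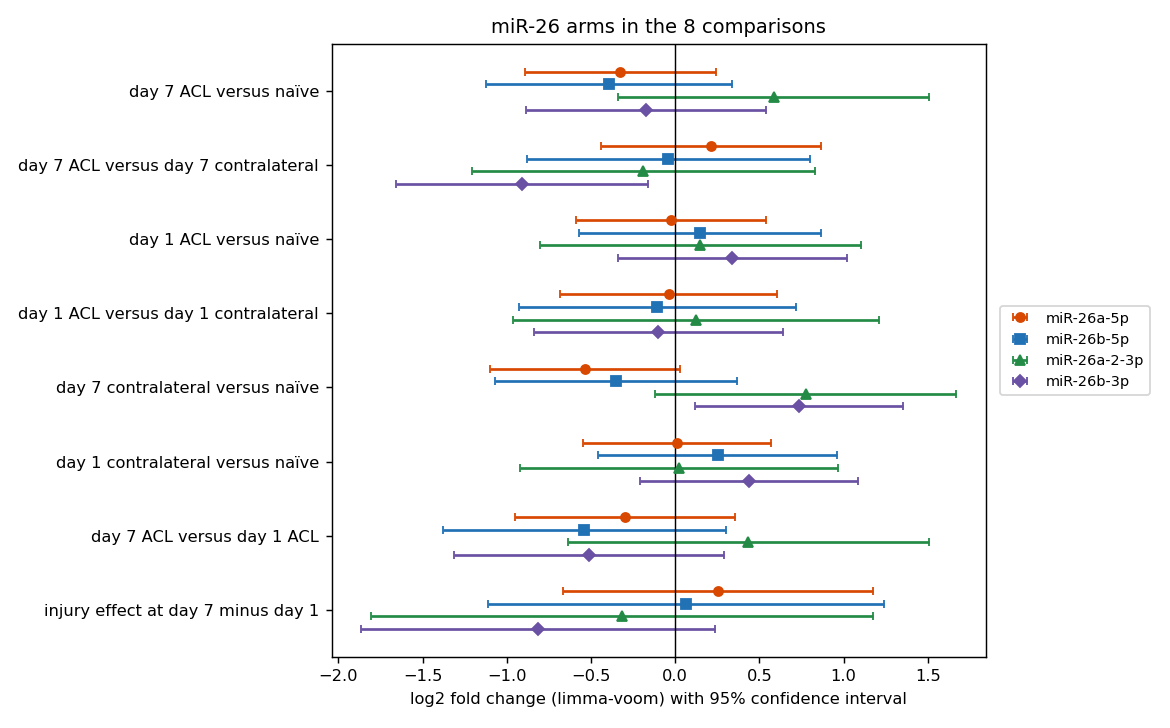
Log2 fold change of 4 miR-26 arms (symbols) in the 8 comparisons, with 95% confidence intervals from limma-voom; the line marks 0. Intervals of 30 of the 32 values include 0, the exceptions being miR-26b-3p in day 7 ACL versus day 7 contralateral and in day 7 contralateral versus naïve.

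No arm of the family was called in any of the 8 comparisons by limma-voom at an adjusted p under 0.05, and edgeR's quasi-likelihood test and DESeq2 called none either. The comparisons share libraries, so they are not independent of each other. At an unadjusted p under 0.05, limma gave 2 of 32 values, the 2 differences of miR-26b-3p above, in comparisons where 23.1% (day 7 ACL versus day 7 contralateral) and 5.37% (day 7 contralateral versus naïve) of all miRNAs did so. For comparison, 18.2% of all miRNAs were called in day 7 ACL versus naïve, 14.7% in day 7 ACL versus day 7 contralateral, 15.7% in day 7 ACL versus day 1 ACL, and 6.78% for the injury effect at day 7 minus that at day 1. In the other 4 comparisons, both day 1 contrasts of the injured knee and both contrasts of the contralateral knee with naïve cartilage, limma called 0 of 428 miRNAs (0%), as did edgeR, while DESeq2 called 1 in day 7 contralateral versus naïve. At an unadjusted p under 0.05 limma gave 8 miRNAs (1.87%) in each day 1 ACL comparison, 23 in day 7 contralateral versus naïve and 4 (0.935%) in day 1 contralateral versus naïve.

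At day 1 the estimates for the guides were small. miR-26a-5p differed by -0.03 ± 0.27 (SE) between day 1 ACL and naïve cartilage and by -0.04 ± 0.31 (SE) between day 1 ACL and the contralateral knee, on the log2 scale. The interval against naïve cartilage ran from -0.59 to 0.54, and without day 7 contralateral replicate 1 from -0.37 to 0.13, and these data do not exclude changes within those bounds. Estimates for the other 3 arms lay between 0.15 and 0.34 against naïve cartilage and between -0.11 and 0.13 against the contralateral knee.

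A test over all 5 groups asked whether an arm differed anywhere. The moderated F test gave adjusted p-values of 0.570 for miR-26a-5p, 0.679 for miR-26b-5p, 0.646 for miR-26a-2-3p and 0.323 for miR-26b-3p (limma), with 13.6% of all miRNAs called. Without day 7 contralateral replicate 1 they lay between 0.409 and 0.500. The spread within groups, as the SD of log2 CPM, was 0.43 for miR-26a-5p and 0.55 for miR-26b-5p, at percentiles 60.9 and 80.5 of the 174 miRNAs that averaged 100 CPM or more. Without day 7 contralateral replicate 1 it was 0.13 for miR-26a-5p and 0.31 for miR-26b-5p, at percentiles 1.72 and 45.4. Most of the spread measured for miR-26a-5p thus came with 1 library.

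Ratios of reads within 1 library do not depend on scaling between libraries. Each used raw counts with 0.5 added. miR-26a-5p outnumbered the sum of both miR-26a 3p arms by a geometric mean of 2664-fold in naïve libraries, from 2146 to 4057. The ratios were 3187, 2744 and 2144 in day 1 contralateral and 2740, 2742 and 1912 in day 1 ACL libraries. These 3 groups overlapped.

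At day 7 the miR-26a arm ratio was lower in several libraries. In day 7 ACL libraries it was 957, 1222 and 2209, a geometric mean of 1373. The first 2 were below all naïve and day 1 libraries. In day 7 contralateral libraries it was 140, 2434 and 2896, so replicate 1 was the lowest of all. Day 7 ACL minus naïve was -0.96 on the log2 scale (two-sided exact permutation p = 0.0238, where 84 arrangements allow no p below 0.0119). After adjustment over all 16 ratio tests the p was 0.381. These p-values count each library as a separate unit, although libraries can share mice, so they can be too small. Leaving out each library in turn moved the difference between -1.30 and -0.70, with exact permutation p between 0.0179 and 0.0714, above 0.05 without day 7 ACL replicate 1 or 2. With a library left out there are fewer than 84 arrangements, so the lowest possible p is above 0.0119. A higher p there need not mean a smaller difference.

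**Figure D3:**
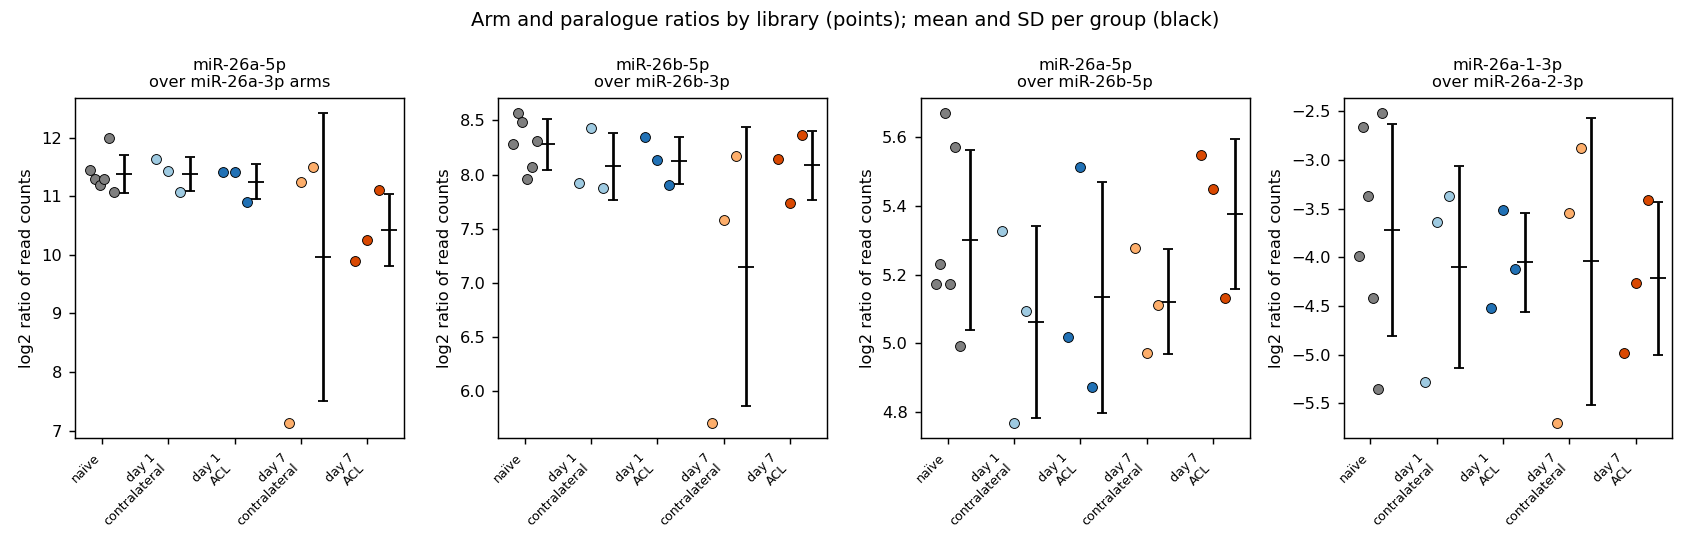
Log2 ratio of read counts in each library (points) for 2 guide to partner ratios and 2 paralogue ratios, with the mean and SD of each group in black. Day 7 contralateral replicate 1 is lowest for both guide to partner ratios but lies inside the range of the other libraries for miR-26a-5p over miR-26b-5p.

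For miR-26b the guide outnumbered its partner by less. The geometric mean of miR-26b-5p over miR-26b-3p was 310 in naïve libraries, 270 in day 1 contralateral, 280 in day 1 ACL and 271 in day 7 ACL. In day 7 contralateral libraries the ratios were 52.3, 191 and 288, with replicate 1 again the lowest. Day 7 ACL minus naïve was -0.19 on the log2 scale (two-sided exact permutation p = 0.310, adjusted p = 0.960). The naïve libraries ranged from 248 to 378 and the day 7 ACL libraries from 213 to 330.

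The balance of the guides overlapped between all groups. miR-26a-5p over miR-26b-5p lay between 27.3 and 50.9 in the 18 libraries, with a geometric mean of 37.2. Group geometric means were 39.5 in naïve, 33.4 in day 1 contralateral, 35.1 in day 1 ACL, 34.8 in day 7 contralateral and 41.5 in day 7 ACL libraries. The 4 tests of this ratio gave exact permutation p-values of 0.200 or more, each adjusted to 0.960, where 3 against 3 libraries cannot go below 0.1. Day 7 contralateral replicate 1, so low in both guides, had a ratio of 38.8.

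The 3p arms also show which miR-26a hairpin left partner reads. Of 1346 3p reads of the 2 hairpins, 94.1% were miR-26a-2-3p and 5.94% miR-26a-1-3p. Within libraries miR-26a-1-3p over miR-26a-2-3p had a geometric mean of 0.0636, from 0.0192 in day 7 contralateral replicate 1 to 0.174. The 4 tests of this ratio gave exact permutation p-values between 0.524 and 0.900, adjusted to 0.960. How much miR-26a-5p each hairpin gave cannot be read from this, since its sequence is the same from both.

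**Figure D4:**
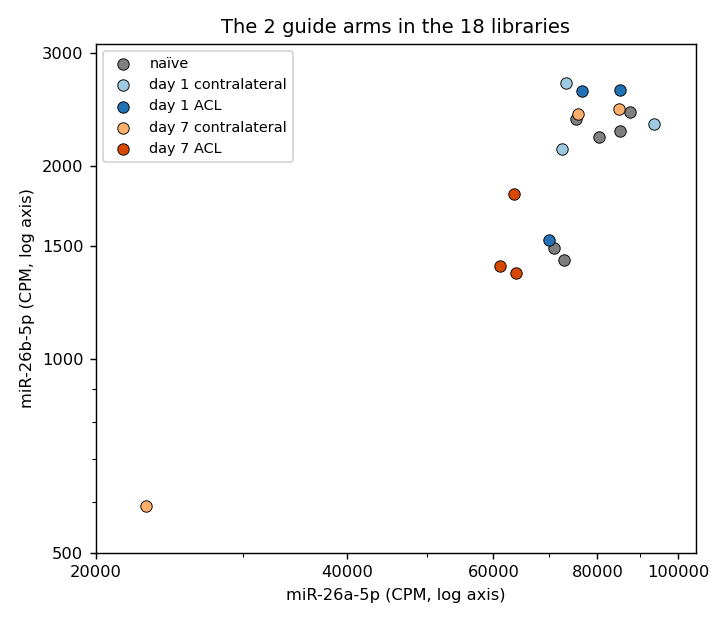
CPM of miR-26a-5p (x) against miR-26b-5p (y) in the 18 libraries, both on log axes, coloured by group. The 3 day 7 ACL libraries lie at 61133 to 63785 CPM of miR-26a-5p, and day 7 contralateral replicate 1 lies alone at 22977 and 592 CPM.

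Among the 173 other miRNAs that averaged 100 CPM or more, those most like miR-26a-5p across the 18 libraries were miR-26b-5p (Pearson r = 0.887 of log2 CPM), miR-17-5p (0.879) and miR-194-5p (0.872). Most like miR-26b-5p were miR-194-5p (0.916), miR-30e-3p (0.902) and miR-26a-5p (0.887). These are descriptions over libraries that share depth and scaling, and much of the likeness lay in 1 library. All 5 of these miRNAs were lowest in day 7 contralateral replicate 1. For example, miR-17-5p was at 98.9 CPM there and between 376 and 848 CPM elsewhere.

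Over the other 17 libraries the order changed. miR-26a-5p was then most like miR-708-5p (r = 0.812), miR-30c-5p (0.765) and miR-185-5p (0.737), with miR-26b-5p in place 4 at 0.717 and miR-17-5p in place 45 at 0.404. miR-26b-5p was most like miR-30a-5p (0.823), miR-30e-3p (0.816) and the muscle miRNA miR-1a-3p (0.803).

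Other broadly expressed families give a scale for these values in day 7 ACL versus naïve cartilage, where 14.5% of all miRNAs were called higher and 3.74% lower, with a median log2 fold change of -0.0028 over all. Of 5 miR-30 guides, 1 fell, miR-30d-5p with -0.62 ± 0.15 (SE, adjusted p = 0.00388, limma), and the median was -0.42. Of 9 let-7 guides, 2 rose, let-7i-5p by 0.58 ± 0.16 and let-7e-5p by 0.66 ± 0.20 (SE, adjusted p = 0.0118 and 0.0200, limma), and the median was 0.26. Of the 3 guides of the miR-148 and miR-152 family none was called (median 0.47), although miR-152-3p rose against the contralateral knee by 1.18 ± 0.35 (SE, adjusted p = 0.0276, limma), where 13.8% of all miRNAs were called higher. The miR-26 guides, at -0.32 and -0.39, lay within the range of the miR-30 guides, -0.62 to -0.26.

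Marker lists of other cells in the same comparison gave a background to these levels. None of 4 cartilage miRNAs (median 0.20) and none of 4 vascular miRNAs (median 0.18) was called. Of 5 erythroid miRNAs, 2 fell (median -0.46), namely miR-486a-5p and miR-486b-5p, which had the same count in every library and are 1 measurement (-1.22 ± 0.24 SE, adjusted p = 0.000673, limma). Of 6 leukocyte miRNAs 1 fell (median -0.07), the lymphocyte miRNA miR-150-5p (-1.54 ± 0.36 SE, adjusted p = 0.00317, limma). With those copies counted once, the summed erythroid share was 0.291% to 0.406% in day 7 ACL and 0.596% to 1.00% in naïve libraries. Most of that sum was miR-486a-5p, with a mean share of 0.477% over all libraries, against 0.142% for miR-451a, 0.0406% for miR-144-5p and 0.0262% for miR-144-3p. Those 3 were not called, at -0.25, -0.46 and -0.0073 (adjusted p = 0.723, 0.409 and 0.988, limma). How many of all miRNAs stayed apart in raw shares was not counted. The part of the erythroid share in the miR-26 values was not tested.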

How the data were processed

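Small RNA reads of 18 pooled cartilage libraries were used. According to the methods, the authors removed adapters (Trim Galore 0.6.6), aligned reads to miRBase mature sequences (Bowtie 1.3.0) and counted them (SAMtools 1.12) in nf-core small RNA-Seq 1.1.0, set to GRCm38. The authors deposited raw read counts per mature miRNA, without normalisation. How reads matching several arms were counted is not given in the sources used here, so low 3p counts could include misassigned reads. The same holds for miR-26b-5p, which differs from the far more abundant miR-26a-5p at 2 of 21 bases compared. No arm of the family had counts identical to another miRNA.

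Groups came from the treatment labels, and replicates were numbered in accession order. Table rows were matched to samples by library number, although their prefixes differ. The members, lists and tests were chosen with earlier results of these data known.

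Counts were filtered with filterByExpr (edgeR 4.0.16, minimum count 10, minimum total 15), scaled by TMM and fitted with limma-voom 3.58.1 in R 4.3.3 to all libraries, with 1 mean per group and Benjamini-Hochberg adjustment over 428 miRNAs at 0.05. The study modelled libraries of the same mouse pool, but the labels do not say which share one, so none were blocked. Ratios were compared by two-sided exact permutation tests. Named miRNAs were the 5 arms, list members, the 3 most abundant and the 3 most like each guide. The procedure was tested on simulated counts of independent libraries, for log2 changes of 2 up or down in day 7 ACL versus naïve. That test does not cover smaller changes or libraries that share mice. Alternatives were 2 scalings, 2 filters, edgeR, DESeq2 1.42.0, quality weights, only the groups compared, scaling without muscle miRNAs, library total as a covariate, and each library left out. Leaving day 7 contralateral replicate 1 out of comparisons it was not part of was added after seeing the data, as were the spread and likeness without it and the erythroid share with identical counts added once. Totals of 758388 to 4088852 counts limit the precision of the 3p arms. Binomial intervals of shares cover counting error only, while limma intervals carry the spread between libraries.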

Additional observations from a re-analysis of the deposited data

How the results depend on the processing

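None of the 32 differences of an arm was past the threshold, and of 596 values under alternatives 3 were, all with quality weights: miR-26a-5p (-0.38) and miR-26b-5p (-0.56) in day 7 ACL versus naïve and miR-26b-5p (-0.75) in day 7 ACL versus day 1 ACL. The sign was the same under every alternative for 15 of the 32, including all 4 arms in day 7 ACL versus naïve and in day 7 ACL versus day 1 ACL, and turned for 17, none of them past the threshold. The test over 5 groups stayed short of the threshold in all 31 alternatives. Counts of calls over all miRNAs in day 7 ACL versus naïve, 78 here, were 48 with at least 10 counts in every library (286 miRNAs tested), 135 with quality weights, and 58 to 99 with single libraries left out. With 0 to 48 reads per library, the arms miR-26a-1-3p and miR-26b-3p allowed no fine comparison. No paired analysis was possible because the labels carry no replicate numbers and give no link between libraries of 1 pool.

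Signs turned as follows, in log2 units, and the cause was not tested. In day 1 contralateral versus naïve, miR-26a-5p was -0.057 with DESeq2 size factors, -0.067 with library totals, -0.024 with every miRNA kept, -0.017 with at least 10 counts, -0.044 with DESeq2, -0.0049 with quality weights, -0.048 without muscle miRNAs and -0.066 with library total as covariate. There miR-26a-2-3p was -0.049 with DESeq2 size factors, -0.063 with library totals, -0.0060 with every miRNA kept, -0.043 with DESeq2, -0.025 with quality weights and -0.034 without muscle miRNAs. In day 1 ACL versus naïve, library totals gave -0.053 for miR-26b-5p and -0.059 for miR-26a-2-3p. With quality weights, day 7 ACL versus day 7 contralateral was -0.27 for miR-26a-5p and 0.55 for miR-26a-2-3p, day 1 ACL versus day 1 contralateral 0.0017 for miR-26a-5p and 0.091 for miR-26b-5p, and day 7 contralateral versus naïve 0.039 for miR-26b-5p. For miR-26b-5p, day 7 ACL versus day 7 contralateral was 0.0039 without muscle miRNAs and 0.16 with library total as covariate. The injury effect at day 7 minus day 1 was -0.046 for miR-26b-5p with every miRNA kept, -0.18 with edgeR and -0.17 with DESeq2, and with quality weights -0.27 for miR-26a-5p, -0.69 for miR-26b-5p and 0.39 for miR-26a-2-3p. With 2 added to each count, the log2 ratio of miR-26b-5p over miR-26b-3p was -0.0033 in day 1 ACL versus day 1 contralateral, and that of miR-26a-1-3p over miR-26a-2-3p was 0.063 in day 7 ACL versus day 7 contralateral.

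Leaving out single libraries gave these lowest and highest values where a sign or a call changed. For miR-26a-5p they were -0.16 and 0.053 (day 1 ACL versus day 1 contralateral), -0.17 and 0.037 (day 1 contralateral versus naïve), -0.29 and 0.51 (day 7 ACL versus day 7 contralateral), -0.82 and 0.00067 (day 7 contralateral versus naïve) and -0.22 and 0.58 (injury effect at day 7 minus day 1). For miR-26b-5p they were -0.28 and 0.12, -0.61 and 0.34, -0.70 and 0.26, and -0.47 and 0.48 in the same comparisons without day 1 contralateral versus naïve, and -0.087 and 0.31 in day 1 ACL versus naïve. For miR-26a-2-3p they were -0.063 and 0.26, -0.14 and 0.065, -0.69 and 0.65, -0.036 and 1.28, and -0.80 and 0.55 in the same 5 comparisons, and -0.10 and 0.22 in day 1 ACL versus naïve. miR-26b-3p lay between -0.36 and 0.10 in day 1 ACL versus day 1 contralateral. Log2 ratios of miR-26a-5p over its 3p arms lay between -0.28 and 0.045 in day 1 ACL versus day 1 contralateral, -0.22 and 0.041 in day 1 ACL versus naïve, -0.95 and 1.23 in day 7 ACL versus day 7 contralateral, and -1.30 and -0.70 in day 7 ACL versus naïve. Those of miR-26a-5p over miR-26b-5p lay between -0.12 and 0.20 in day 1 ACL versus day 1 contralateral and -0.011 and 0.20 in day 7 ACL versus naïve. That of miR-26b-5p over miR-26b-3p lay between -0.054 and 0.23 in day 1 ACL versus day 1 contralateral, and that of miR-26a-1-3p over miR-26a-2-3p between -0.55 and 0.41 there and -1.01 and 0.40 in day 7 ACL versus day 7 contralateral. Leaving out day 7 contralateral replicate 1 turned miR-26a-5p and miR-26a-2-3p in day 7 ACL versus day 7 contralateral, both guides and miR-26a-2-3p in day 7 contralateral versus naïve and in the injury effect at day 7 minus day 1, miR-26a-5p (-0.050) and miR-26a-2-3p (-0.046) in day 1 contralateral versus naïve, and the ratio of miR-26a-5p over its 3p arms (-0.95) in day 7 ACL versus day 7 contralateral.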
